A study of Mus musculus musculus x Mus musculus castaneus with 8 samples.

Results

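The ERM family consists of 3 genes, Msn (moesin), Ezr (ezrin) and Rdx (radixin). They were taken by name from the gene tables, with their total level and their share of mus reads across the groups already known. All 3 were found among the 24421 genes of the composite table, and all 3 were kept by the filter on low counts that left 12643 genes for testing. Because their total level and mus share were what they were chosen by, both are described for the 3 genes without a test.

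RNA was sequenced from 8 libraries of tail fibroblasts of female mice from a first-generation (F1) cross of the subspecies Mus musculus musculus and Mus musculus castaneus, in which a read over a sequence variant shows whether it came from the mus or the cas allele. There were 4 groups of 2 libraries. The untreated group received DMSO, the solvent, and the others 5azadC (5-aza-2'-deoxycytidine, which blocks DNA methyltransferases), VX680 (a blocker of the mitotic Aurora kinases) or 5azadC+VX680. Drugs went onto the cells 24 h after these were plated on 15 cm plates, growth lasted 72 h in all, and DMSO was used to bring all conditions to an equal volume. The labels name no strain, animal number or age, nor do they tell if replicates came from separate cultures, so that every p-value below measures only the spread between these libraries.

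ERM proteins tie the plasma membrane to the actin cortex. Their FERM domain holds membrane proteins and phosphoinositides, and their C-terminal tail holds actin filaments. In the closed form the tail covers the FERM domain, and kinases open it by phosphorylating a threonine near the C terminus. Moesin is the family member usually found in fibroblasts and blood cells, ezrin in epithelia and radixin in liver and in the hair cells of the ear. The Msn gene lies on the X chromosome, where in female cells the copy on the inactive X is silent, while Ezr lies on chromosome 17 and Rdx on chromosome 9.

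The end of the coding sequence is shown for the 3 genes because it encodes this tail, with its regulatory threonine, and because differences of this kind are what separate the reads of close relatives. Each line is the last 90 coding bases, 5′ to 3′ on the coding strand, from the GENCODE annotation of build GRCm38, and capitals mark bases that differ from Msn at that place.
Msn: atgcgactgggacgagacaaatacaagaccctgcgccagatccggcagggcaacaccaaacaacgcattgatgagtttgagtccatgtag
Ezr: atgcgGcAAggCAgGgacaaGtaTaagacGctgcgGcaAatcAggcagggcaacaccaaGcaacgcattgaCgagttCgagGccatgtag
Rdx: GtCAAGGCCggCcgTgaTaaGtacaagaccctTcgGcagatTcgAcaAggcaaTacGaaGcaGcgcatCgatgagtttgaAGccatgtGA
In this stretch Ezr differed from Msn at 16 bases and Rdx at 26, which changed 2 and 4 of the encoded residues. Over the whole coding sequence Msn was 73.2% identical to Ezr and 71.5% to Rdx, and Ezr was 69.9% identical to Rdx. The longest run of bases shared exactly was 32 between Msn and Ezr, 18 between Msn and Rdx and 15 between Ezr and Rdx. The length of the reads is not given in the sources used here, so how far reads could be misassigned between members was not tested.

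The libraries held between 6908503 and 11169532 reads in genes. Between 26.1% and 26.9% of these carried an allele, and the median mus share of autosomal genes lay between 46.4% and 46.8% in every library. All 10 fibroblast markers had reads in untreated cells, and their summed level was 31110 and 35180 CPM there, 18070 and 22250 with 5azadC, 13230 and 13710 with VX680, and 11220 and 10990 with both drugs. The collagen genes Col1a1, Col1a2 and Col3a1 carried most of this sum and fell, whereas Thy1 and Vim rose. Of 9 markers tested, 2 rose and 6 fell with 5azadC, and 2 rose and 7 fell with VX680 and with both drugs (edgeR, adjusted p under 0.05). Among all genes tested, 42.2%, 46.1% and 55.7% passed with 5azadC, VX680 and both drugs. CPM, the usual read count scaled by library size, is given throughout after TMM scaling, a correction for differences in library composition. Of 10 epithelial markers, 6 stayed under 1 CPM in every library, and the 10 together summed to at most 18.84 CPM. Of 8 leukocyte markers, 5 stayed under 1 CPM, Tyrobp and Cd3e were at 0 reads throughout, and the sum lay between 19.62 and 31.21 CPM. Of 6 endothelial markers, 3 stayed under 1 CPM, and the sum went from 11.7 and 13.63 CPM in untreated cells to 84.73 and 92.82 with VX680, nearly all of it from Flt1, with Emcn at 0 reads throughout. The part of these markers in the results below was not tested. RNA from fewer cells of a type and less RNA per cell cannot be told apart in such bulk samples.

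Msn was higher in every treated library than in either untreated library, Ezr was higher by smaller factors, and Rdx lay close to its untreated level in all groups. The untreated libraries had 246.6 and 271.0 CPM of Msn. The 5azadC libraries had 808.1 and 686.7 CPM, those with VX680 had 995.3 and 983.6, and those with both drugs had 1189 and 1169. The groups did not overlap, and the order of Msn levels was untreated, 5azadC, VX680 and both drugs, with each step larger than the gap between the libraries on either side of it. The fitted Msn level was 2.89-fold the untreated one with 5azadC (log2 fold change 1.53 ± 0.10, SE), 3.83-fold with VX680 (1.94 ± 0.10) and 4.56-fold with both drugs (2.19 ± 0.10). Of all genes tested, 42.2% passed an adjusted p of 0.05 (edgeR) with 5azadC (22.6% higher, 19.6% lower), 46.1% with VX680 (23.8% and 22.4%) and 55.7% with both drugs (28.4% and 27.3%), in comparisons that share the untreated libraries. A higher log2 fold change than that of Msn was found for 5.56%, 4.35% and 4.98% of genes. With both drugs Msn was 1.58-fold its level with 5azadC alone (0.66 ± 0.09) and 1.19-fold its level with VX680 alone (0.25 ± 0.09), comparisons in which 24.8% (9.98% higher, 14.8% lower) and 6.5% (2.45% and 4.05%) of all genes passed.

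**Figure D1:**
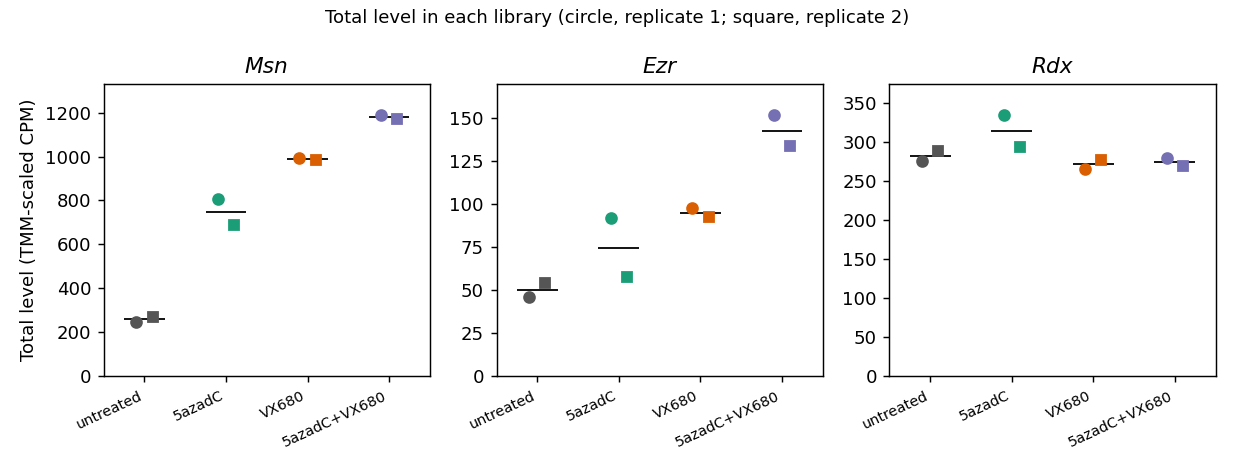
Total level of Msn, Ezr and Rdx (TMM-scaled CPM, axes from 0) in each of the 8 libraries, by group; bars are means of 2 libraries. Msn steps up from about 259 CPM in untreated cells to 1179 CPM with both drugs without overlap between groups, Ezr goes from 50.04 to 142.7 CPM, and Rdx stays between 266 and 335 CPM.

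Ezr, the epithelial member, stood at 46.2 and 53.9 CPM in the untreated libraries. With 5azadC its level was 92.1 CPM in replicate 1 and 57.5 in replicate 2. With VX680 it was 97.7 and 92.6 CPM, and with both drugs 151.8 and 133.6. The 5azadC libraries lay far apart: replicate 2 was close to the higher untreated library and replicate 1 close to the lower VX680 library, so that 5azadC differed from neither neighbour beyond its own spread. The levels with both drugs stood above all others. Fitted folds over untreated were 1.51 with 5azadC (log2 0.59 ± 0.17), 1.91 with VX680 (0.93 ± 0.17) and 2.87 with both (1.52 ± 0.17). Without 5azadC replicate 1 the first of these was 0.21 in log2, and without 5azadC replicate 2 it was 0.87. Ezr with both drugs was 1.90-fold its level with 5azadC and 1.499-fold that with VX680 (0.93 ± 0.17 and 0.58 ± 0.16).

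The epithelial markers went with Ezr in some libraries but not in those with VX680 alone. Their summed level was 0.0907 and 0.440 CPM in untreated cells, 13.7 and 3.02 with 5azadC, 2.65 and 4.00 with VX680, and 18.8 and 16.6 with both drugs. Replicate 1 of 5azadC was thus above replicate 2 in both Ezr and these markers, while with VX680 the markers were low and Ezr was not. In the libraries with 5azadC, alone or combined, the keratin genes Krt18 and Krt8 made up most of the sum, and Krt5, Krt14, Cldn4, Cldn7, Esrp1 and Ocln stayed under 1 CPM. Their part in the Ezr levels was not tested.

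Rdx showed little spread across groups. The untreated libraries had 275.5 and 288.5 CPM. Those with 5azadC had 335.0 and 294.0, those with VX680 266.2 and 277.0, and those with both drugs 279.5 and 269.2. Only the 5azadC libraries lay outside the untreated range on the high side, and the other groups overlapped with untreated. Log2 fold changes over untreated were 0.16 ± 0.09 with 5azadC, -0.05 ± 0.09 with VX680 and -0.04 ± 0.09 with both. The last 2 changed sign with the authors' own library factors (0.05 and 0.07), which place the median gene 0.10 higher in both comparisons, so Rdx has no direction there. With both drugs Rdx stood below 5azadC alone in both libraries (-0.20 ± 0.09) and level with VX680 (0.02 ± 0.09).

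Levels of different genes can be set side by side only per length. With the deposited gene lengths of 3825 bases for Msn, 3055 for Ezr and 4547 for Rdx, untreated cells had 67.7 ± 4.51 CPM per kb of Msn, 16.4 ± 1.80 of Ezr and 62.0 ± 2.01 of Rdx (SD, n = 2). Msn and Rdx were therefore close in untreated cells. Msn made up 46.0% and 46.6% of the summed family level there, and Rdx 43.2% and 41.8%. With 5azadC the Msn part was 67.1% and 68.3%, with VX680 74.2% and 73.8%, and with both drugs 73.7% and 74.8%. The Rdx part was 23.4% and 24.6%, 16.7% and 17.5%, and 14.6% and 14.5% in the same order. Ezr made up between 7.15% and 11.8% of the family in all libraries, with untreated (10.8% and 11.6%) and both drugs (11.8% and 10.7%) alike in range. The summed level per kb went from 140.2 and 152.0 in untreated cells to 422.1 and 408.6 with both drugs.

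The allele reads show which X chromosome Msn was read from. In untreated cells 1 of 614 Msn reads with an allele was mus in replicate 1, a share of 0.163% (exact 95% interval 0.00412% to 0.904%). In replicate 2 it was 0 of 409, which allows a share of up to 0.733%. Such intervals and limits cover counting error only. Almost all Msn RNA thus came from the cas X. Xist, the RNA that coats the inactive X and is made from it, carried a mus share of 93.2% and 90.7% in the same libraries, at 781.1 and 785.5 CPM. Its level was lower in all 6 treated libraries, between 357.1 and 428.8 CPM. Its mus share was 77.4% and 79.8% with 5azadC, 90.6% and 93.2% with VX680, and 81.7% and 88.7% with both drugs. This share was below both untreated ones in all 4 libraries that had 5azadC, and just below them in VX680 replicate 1. The part of Xist in the Msn shares was not tested.

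With 5azadC, 150 of 1692 Msn reads were mus in replicate 1 and 42 of 1188 in replicate 2. These are shares of 8.87% (7.55% to 10.3%) and 3.54% (2.56% to 4.75%). With VX680 the shares were 1.08% (25 of 2309 reads) and 1.16% (20 of 1731). With both drugs they were 4.58% (85 of 1856) and 3.95% (76 of 1922). Mus reads of Msn were above both untreated libraries in all 6 treated libraries, and lower with VX680 alone than in either group that had 5azadC. For the mus to cas ratio, 0.282%, 0.379% and 0.515% of 10301 genes passed (edgeR, adjusted p under 0.05) with 5azadC, VX680 and both drugs against untreated. The mean share with both drugs, 4.27% ± 0.443 (SD, n = 2), lay between the 2 libraries of 5azadC alone (6.2% ± 3.77), so the groups with 5azadC do not differ beyond their spread. The 5azadC libraries themselves lay further apart than counting error, since their intervals do not meet. Each share rests on 1 library, and leaving out either 5azadC library would move the mean to the other's value.

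**Figure D2:**
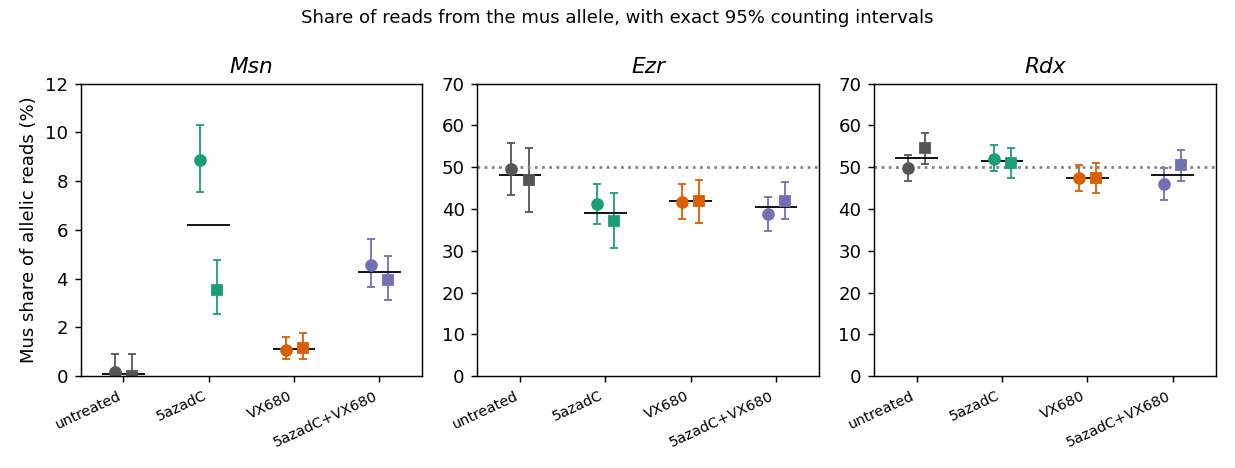
Mus share of allele-assigned reads (percent) for Msn, Ezr and Rdx in each library, with exact 95% counting intervals; bars are means of 2 libraries, the Msn axis ends at 12% and the dotted line marks 50%. Msn goes from at most 0.163% in untreated cells to 8.87% and 3.54% with 5azadC, while Rdx stays near 50% and Ezr lies between 37.1% and 41.96% in treated cells.

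The mus copy accounted for little of the higher Msn level. Scaled to library size, untreated cells had 0.0907 and 0 CPM of mus Msn reads, 5azadC 16.7 and 5.76, VX680 2.46 and 2.66, and both drugs 11.95 and 10.5. Cas reads of Msn stood at 55.6 and 59.95 CPM in untreated cells, 171.9 and 157.2 with 5azadC, 224.2 and 227.9 with VX680, and 249.0 and 254.7 with both. Both alleles were thus higher in every treated library than in untreated ones, and the cas allele, already active, was 2.85-fold, 3.91-fold and 4.36-fold its untreated mean. Of the gain in allele-assigned reads, the mus allele made up 9.48% with 5azadC, 1.47% with VX680 and 5.45% with both. The ratio of mus reads to untreated was 211 with 5azadC (counting interval 37.4 to 8370), 45.4 with VX680 (7.74 to 1830) and 200 with both (35.4 to 7950). These ratios rest on 1 untreated read, which sets the width of the intervals. In the authors' deposited tables the log2 fold changes of the cas allele of Msn over untreated were 1.45 with 5azadC, 2.05 with VX680 and 2.27 with both drugs. The authors' deposited tables give 7.80, 5.77 and 7.93 for its mus allele, values that depend on how a near-zero level is handled.

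**Figure D3:**
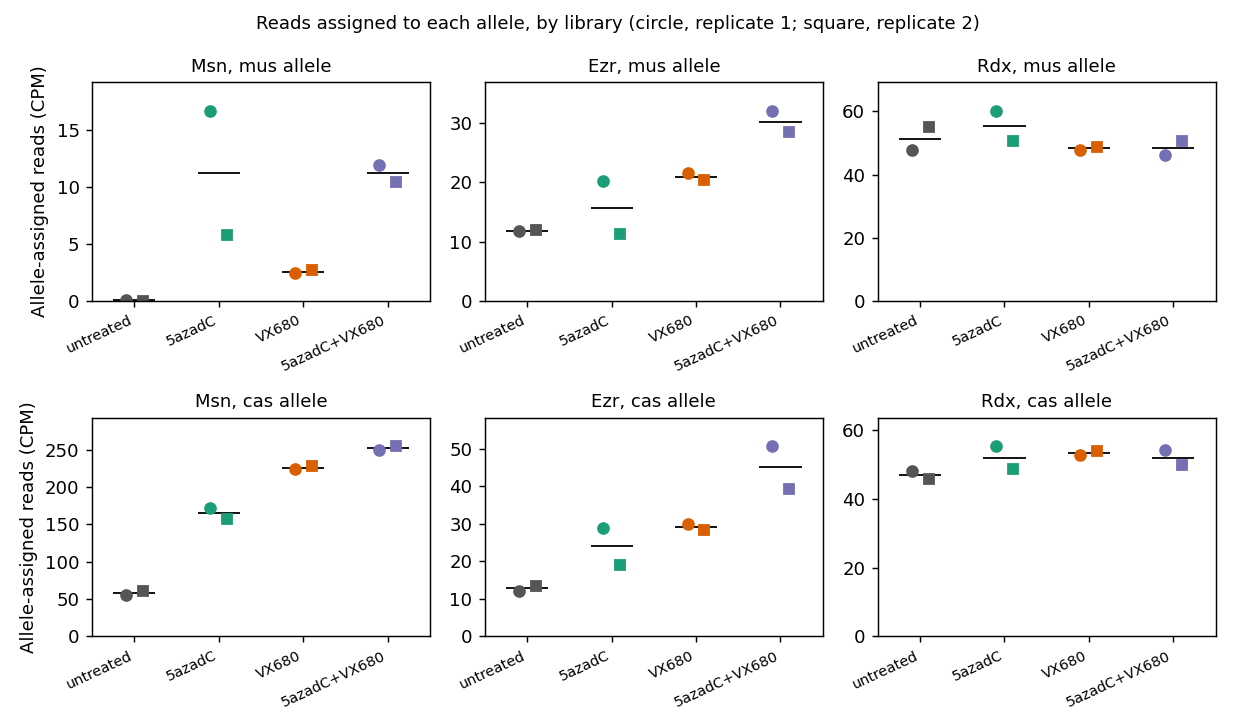
Reads assigned to the mus (top) and cas (bottom) allele of Msn, Ezr and Rdx in each library, in CPM with axes from 0; bars are means of 2 libraries. The cas allele of Msn goes from 57.8 to 251.8 CPM between untreated and both drugs while the mus allele reaches at most 16.7 CPM, and both alleles of Ezr are higher with both drugs.

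Ezr and Rdx are autosomal, and both alleles of each were read in every library. The mus share of Ezr was 49.6% (43.4% to 55.8%) and 46.8% (39.2% to 54.5%) in untreated cells. With 5azadC it was 41.1% and 37.1%, with VX680 41.8% and 41.8%, and with both drugs 38.8% and 41.96%. All 6 treated libraries were below both untreated ones, although counting intervals of most libraries overlap (5azadC replicate 1, for example, had 36.5% to 45.9%). Both Ezr alleles had more reads with VX680 and with both drugs: mus reads went from 11.8 ± 0.0566 CPM to 30.2 ± 2.57 with both drugs, and cas reads from 12.7 ± 1.07 to 44.97 ± 7.98 (SD, n = 2). In 5azadC replicate 2 the mus reads of Ezr, at 11.3 CPM, were below both untreated libraries. In the authors' deposited tables the log2 fold change of Ezr over untreated was likewise larger on the cas than on the mus allele: 0.82 and 0.30 with 5azadC, 1.22 and 0.83 with VX680, and 1.86 and 1.34 with both drugs.

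The mus share of Rdx was 49.8% and 54.5% in untreated cells, 52.1% and 50.96% with 5azadC, 47.5% in both VX680 libraries, and 45.9% and 50.4% with both drugs. The untreated libraries spread by as much as the groups did, although both VX680 libraries lay below both untreated ones. Neither allele of Rdx left the range of 45.9 to 60.2 CPM.

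Among X-linked genes, the mus share of Msn was below that of the median gene in untreated cells and above it in every treated group. Over 277 X-linked genes other than Xist with a mean of at least 10 allele-assigned reads per library, 157 had a higher mean mus share than Msn in untreated cells. With 5azadC, VX680 and both drugs this number was 58, 109 and 69. In CPM of mus reads, 131 of these genes stood above Msn in untreated cells, and 4, 18 and 4 in the treated groups. Msn supplied 0.0335% of all mus reads of these genes in untreated cells, 5.65% with 5azadC, 1.31% with VX680 and 5.22% with both drugs. Its part of all their allele reads, mus and cas together, was 1.38%, 4.32%, 5.74% and 7.07% in the same order. The part of its level in its number of mus reads was not tested. The mus share pooled over these genes without Msn was 4.08% ± 0.032, 5.02% ± 0.102, 5.13% ± 0.0887 and 5.88% ± 0.0792 (SD, n = 2) in the order untreated, 5azadC, VX680 and both. The pool also holds genes with a high mus share in untreated cells, such as Ngfrap1 (99.1%), Rps4x (91.1%) and Kdm5c (29.7%). It is thus not a level of silent genes alone, and the median gene stayed between 0.512% and 0.602%. The Msn share was therefore below the pooled share in untreated cells, with VX680 and with both drugs, and above it in 1 of the 2 5azadC libraries.

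**Figure D4:**
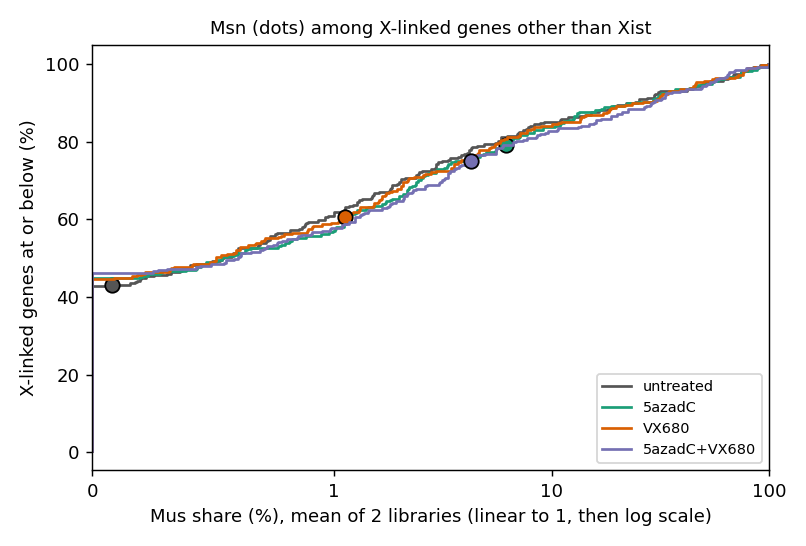
Cumulative share of the X-linked genes other than Xist (y axis, percent) with a mean mus share at or below the value on the x axis (percent, linear up to 1 and logarithmic above), 1 line per group; dots mark Msn. The lines of the 4 groups lie close together, while the Msn dot moves from under 0.1% in untreated cells to 6.2% with 5azadC, 1.119% with VX680 and 4.27% with both drugs.

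Other than Eda2r, the genes next to Msn on the X chromosome had few mus reads. Order was taken from the GENCODE annotation, and genes with a mean of at least 10 allele-assigned reads were used, up to 5 on either side. On the side of Zxda, Spin4, Amer1, Zc3h12b and Las1l the mus reads over both libraries were 0, 2, 0, 0 and 0 in untreated cells, and at most 1 per gene in any treated group. Las1l, which acts in ribosome assembly and is the nearest, had 1 of 52 reads with 5azadC, 0 of 58 with VX680 and 1 of 78 with both drugs. On the other side Yipf6, Efnb1 and Pja1 had at most 2 mus reads in any group. Eda2r, the nearest gene on that side and a receptor of the tumour necrosis factor family, had 0 of 4 mus reads untreated, 1 of 39 with 5azadC, 14 of 72 with VX680 and 12 of 62 with both drugs. Its shares differed between libraries, at 28.6% and 10.8% with VX680 and 37.5% and 0% with both drugs. Depth limits these genes: for Las1l the interval with 5azadC was 0.0487% to 10.3%, which holds the Msn value, whereas for Efnb1, a membrane-bound ephrin ligand, it was 0.101% to 2.98% with 2 mus of 240 reads.

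The genes whose level was most like that of Msn over the 8 libraries were Ccnd1 (cyclin D1; Pearson r of log2 CPM 0.999), Iqgap1 (an actin-binding scaffold; 0.999) and Ankrd1 (0.998). The 8 libraries share 4 groups, and 13.2% of the 9719 genes compared had an r over 0.9 with Msn, so a high r is common. The log2 fold changes over untreated of Ccnd1 were 2.517, 2.996 and 3.495 with 5azadC, VX680 and both drugs, and those of Iqgap1 were 0.80, 1.03 and 1.18. The order of the groups was that of Msn in both genes. Most like Ezr were Sgms2 (a sphingomyelin synthase; 0.995), Rnf145 (0.988) and Otud1 (0.987), and 4.52% of genes exceeded 0.9. Most like Rdx were Mov10 (an RNA helicase; 0.972), Tor1aip1 (0.946) and Psme1 (a proteasome activator subunit; 0.945), all with their highest mean in the 5azadC group, and 0.298% of genes exceeded 0.9. Between the members r was 0.892 for Msn and Ezr, -0.0833 for Msn and Rdx and -0.15 for Ezr and Rdx.

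Other genes of the pathway were taken from 4 lists with 69 genes, 59 of which passed the filter on low counts, and these were tested. Against untreated, 21 rose and 8 fell with 5azadC, 32 and 10 with VX680, and 26 and 13 with both drugs (edgeR quasi-likelihood test, adjusted p under 0.05 over all genes). That is 49.2%, 71.2% and 66.1% of the genes tested, beside 42.2%, 46.1% and 55.7% of all genes. The median log2 fold change of the 59 genes was 0.15, 0.28 and 0.19 in the same order, beside 0.00, 0.01 and 0.01 over all genes. Fewer of these genes passed with 5azadC and with VX680 when untreated replicate 1 was left out, and with VX680 when VX680 replicate 1 was. The share of all genes called in fits with a library left out is not given here. No loss particular to these lists can therefore be read from such fits. With both drugs 10 genes were higher and 10 lower than with 5azadC alone, and 0 higher and 2 lower (Sdc2 and Tln2) than with VX680 alone (edgeR), where 24.8% and 6.5% of all genes passed. Fewer genes passed against 5azadC alone without either library of the combined treatment. Against VX680 alone, fewer passed without any 1 library of VX680 or of both drugs, and more without either 5azadC library.

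Membrane partners and scaffolds, which the FERM domain binds, had the highest share of genes past the threshold of the 4 lists. Of 18 listed, 12 were tested: 5 rose and 3 fell with 5azadC, 8 and 4 with VX680, and 7 and 4 with both drugs. That is 66.7%, 100% and 91.7% called, beside 42.2%, 46.1% and 55.7% of all genes, with medians of 0.61, 1.01 and 0.74. Most genes that rose had low untreated means: Icam1 0.237, Podxl 0.419, Spn 0.984, Pdpn 2.11 and Fas 4.89 CPM. The others that rose were Cd44 in all treated groups, L1cam with VX680 and both drugs, and Slc9a3r1 with VX680. Cd44, the hyaluronan receptor, had 57.1 and 56.6 CPM in untreated cells, 181.6 and 146.2 with 5azadC, 175.6 and 183.4 with VX680, and 221.3 and 223.8 with both. It rose in all treated groups, by 1.53 ± 0.11, 1.66 ± 0.11 and 1.97 ± 0.11 in log2 (edgeR adjusted p = 2.68e-07, 7.77e-08 and 9.32e-09). Pdpn (podoplanin) and Spn (CD43), membrane glycoproteins that bind ERM proteins, also rose but from low levels. Pdpn went from 1.72 and 2.49 CPM to 12.7 and 11.3 with both drugs (2.54 ± 0.30, edgeR adjusted p = 8.69e-06), and Spn from 1.09 and 0.880 to 10.4 and 8.69 (3.23 ± 0.36, edgeR adjusted p = 4.60e-06). With 5azadC alone Pdpn changed by 1.33 ± 0.32 and lost its call without untreated replicate 1 (edgeR adjusted p = 0.0632).

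Vcam1, an adhesion receptor for leukocytes, fell in all treated groups. It stood at 283.8 and 227.2 CPM in untreated cells, 127.4 and 132.2 with 5azadC, 76.5 and 79.6 with VX680, and 62.3 and 66.8 with both (log2 -0.98 ± 0.11, -1.71 ± 0.11 and -1.99 ± 0.11, edgeR adjusted p = 1.06e-05, 6.63e-08 and 1.12e-08). The scaffold gene Slc9a3r1 (NHERF1), which links ERM proteins to transporters, passed only with VX680 (0.29 ± 0.10, edgeR adjusted p = 0.0294). It lost that call in 6 of the alternatives. Slc9a3r2, another scaffold gene of the list, fell with 5azadC, VX680 and both drugs (-0.64 ± 0.09, -0.28 ± 0.09 and -0.42 ± 0.09, edgeR adjusted p = 0.000111, 0.0229 and 0.00184). How its calls held in the alternatives is not given here. L1cam, the X-linked cell adhesion gene of this list, rose with VX680 (1.09 ± 0.18, edgeR adjusted p = 0.000238) and had 0 mus reads in all libraries other than the 2 with both drugs, which had 1 of 22 and 1 of 24.

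Of 17 activators, 15 were tested, and 5 rose and 2 fell with 5azadC, 6 and 1 with VX680, and 5 and 3 with both drugs. At 46.7%, 46.7% and 53.3% called, the list was near the share of all genes (42.2%, 46.1% and 55.7%). Their medians were 0.12, 0.26 and 0.17. Stk10, a kinase of the regulatory threonine, rose from 46.4 and 49.1 CPM to 70.2 and 65.8 with 5azadC, 65.5 and 69.4 with VX680 and 76.6 and 64.2 with both (0.51 ± 0.11, 0.50 ± 0.11 and 0.56 ± 0.11, edgeR adjusted p = 0.00241, 0.00252 and 0.000827). Slk, the closest relative of Stk10, changed by -0.19 ± 0.09, -0.14 ± 0.09 and -0.26 ± 0.09, the last with an adjusted p of 0.0326 (edgeR). That call was lost without either untreated library or either library with both drugs, and with the authors' library factors, with an adjusted p of 0.0682 to 0.214. Rhoa stayed between 121.8 and 150.0 CPM and did not pass in any of the 5 comparisons, although with the authors' library factors it passed with VX680 and with both drugs (edgeR adjusted p = 0.0317 and 0.0267).

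Rhoc, a GTPase close to Rhoa, rose by 0.37 ± 0.09, 0.53 ± 0.09 and 0.55 ± 0.09 with 5azadC, VX680 and both (edgeR adjusted p = 0.00419, 0.000282 and 0.000131). The first call was lost without untreated replicate 1 (edgeR adjusted p = 0.0605). Rhob rose with 5azadC, by 0.57 ± 0.11 (edgeR adjusted p = 0.000785), and did not pass with both drugs (0.19 ± 0.11, edgeR adjusted p = 0.15). Its call with VX680 (0.31 ± 0.11, edgeR adjusted p = 0.0272) was lost without either VX680 library or untreated replicate 1. Of the kinase genes Rock1 and Rock2, Rock2 rose with VX680 and with both drugs (0.50 ± 0.09 and 0.38 ± 0.09, edgeR adjusted p = 0.000342 and 0.00205), and Rock1 did not pass in any of the 3 comparisons (-0.14 ± 0.13, 0.10 ± 0.12 and 0.16 ± 0.13). Prkca, protein kinase C alpha, rose by 0.99 ± 0.13, 0.65 ± 0.13 and 0.49 ± 0.13 (edgeR adjusted p = 4.14e-05, 0.00102 and 0.00554), and the last call was lost without untreated replicate 1 (0.0946).

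All 7 inactivators were tested. With 5azadC 2 rose and 0 fell, with VX680 3 rose and 1 fell, and with both drugs 2 rose and 2 fell. These are 28.6%, 57.1% and 57.1% of the list, beside 42.2%, 46.1% and 55.7% of all genes. Ppp1r12a (MYPT1), the targeting subunit of myosin phosphatase, which also removes the ERM phosphate, stood at 232.4 and 232.0 CPM in untreated cells, 164.3 and 175.8 with VX680 and 145.5 and 165.9 with both. It fell in both groups (-0.45 ± 0.10 and -0.58 ± 0.10, edgeR adjusted p = 0.0021 and 0.000239), while with 5azadC it had -0.22 ± 0.10 (edgeR adjusted p = 0.0951). Among the catalytic subunit genes of the list, Ppp1ca rose in all 3 comparisons, by 0.42 ± 0.09, 0.26 ± 0.09 and 0.31 ± 0.09 (edgeR adjusted p = 0.00165, 0.0265 and 0.00758). It lost the last 2 calls without untreated replicate 2, among others. Ppp1cb (0.00 ± 0.11, 0.06 ± 0.11 and -0.09 ± 0.11) and Ppp1cc did not pass in any of the 3 comparisons. Arhgdia, an inhibitor of small GTPases that the FERM domain can bind, rose by 0.59 ± 0.10, 0.44 ± 0.10 and 0.44 ± 0.10 (edgeR adjusted p = 0.000262, 0.00179 and 0.00133). Its relative Arhgdib rose with VX680 (0.56 ± 0.15, edgeR adjusted p = 0.00736), a call lost without VX680 replicate 1 or untreated replicate 1. Arhgdib did not pass with 5azadC or with both drugs (-0.07 ± 0.15 and 0.21 ± 0.15, edgeR adjusted p = 0.754 and 0.265). Nf2 (merlin), the ERM relative that acts as a tumour suppressor, changed by -0.16 ± 0.09, -0.05 ± 0.09 and -0.27 ± 0.09, the last with an edgeR adjusted p of 0.0214, which was lost in 5 of the alternatives (up to 0.16).

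Of 27 other FERM domain genes, 25 were tested, and 9 rose and 3 fell with 5azadC, 15 and 4 with VX680, and 12 and 4 with both drugs. These are 48.0%, 76.0% and 64.0% of those tested, beside 42.2%, 46.1% and 55.7% of all genes, so that with 5azadC the list was near the share of all genes. Their medians were 0.20, 0.31 and 0.26. Frmd6 (willin), an upstream member of the Hippo pathway, rose from 89.8 and 72.3 CPM to 155.5 and 153.3 with 5azadC, 178.3 and 187.2 with VX680 and 160.7 and 160.6 with both (0.92 ± 0.11, 1.17 ± 0.11 and 0.98 ± 0.11, edgeR adjusted p = 1.43e-05, 1.41e-06 and 3.71e-06). Myo10, the motor of filopodia, rose by 0.57 ± 0.11, 0.65 ± 0.11 and 0.81 ± 0.11 (edgeR adjusted p = 0.00111, 0.000356 and 3.58e-05). The phosphatase gene Ptpn13 fell from 137.6 and 151.7 CPM to 53.0 and 66.1 with VX680 and 51.5 and 50.2 with both (-1.28 ± 0.12 and -1.51 ± 0.12, edgeR adjusted p = 2.18e-06 and 3.29e-07). With 5azadC it fell by 0.45 ± 0.12 (edgeR adjusted p = 0.00714), a call lost without untreated replicate 2 (0.0541). Epb41, the red cell protein that gives the FERM domain part of its name, fell in all 3 comparisons (-0.60 ± 0.14, -0.79 ± 0.14 and -0.92 ± 0.14, edgeR adjusted p = 0.0033, 0.000413 and 8.44e-05).

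**Figure D5:**
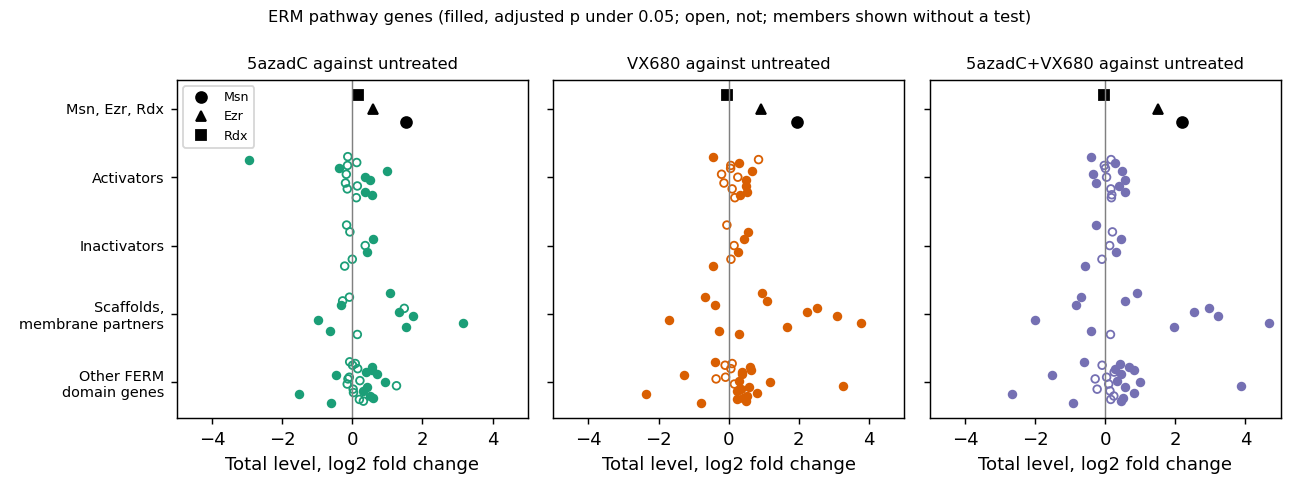
Log2 fold change of total level against untreated for the 3 members (black, no test) and for the tested genes of the 4 pathway lists, 1 panel per treated group; filled points passed an adjusted p of 0.05 and open points did not. With both drugs the membrane partners run from Vcam1 at -1.99 to the low-level Icam1 at 4.67.

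The allele ratio of the pathway genes moved in few cases. Of 54 pathway genes with enough allele reads, 0 passed with 5azadC and 0 with VX680, and 1 passed with both drugs (edgeR, adjusted p under 0.05), where 5, 2 and 8 had an unadjusted p under 0.05. Over all genes 0.282%, 0.379% and 0.515% passed the adjusted threshold. The share of all genes with an unadjusted p under 0.05 is not given here, so no excess can be read from the unadjusted counts. The gene that passed was Arhgdib, an autosomal relative of Arhgdia. Its mus share was 57.5% and 58.7% in untreated cells, 52.0% and 62.4% with 5azadC, 47.6% and 49.4% with VX680, and 41.2% and 42.1% with both drugs (log2 change of the mus to cas ratio -0.95 ± 0.21, edgeR adjusted p = 0.0128). With both drugs and with VX680 the share was below both untreated libraries. The call was lost without any 1 of the untreated libraries or the libraries with both drugs.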

How the data were processed

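The submitters' processing notes name build mm9 and, without stating what each did, TopHat2 2.0.10, HOMER 4.8 and edgeR. The deposited composite table holds raw counts per gene and, per the file headers, a gene length in bases, and a second deposited table holds counts assigned to the mus or cas allele. The authors' normalized signal equals those counts times 1 factor per library, whose making is not stated. The authors' deposited allelic tables give log2 fold changes, mean log2 CPM and p-values, of which only the first are quoted. The kit marks strand, and how strand was used in counting is not given in the sources used here.

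Total counts were fitted with edgeR 4.0.16 in R 4.3.3 (filterByExpr, TMM, 1 mean per group, quasi-likelihood test, Benjamini-Hochberg adjustment over 12643 genes). SE is the log2 fold change divided by the root of its F statistic. Mus to cas ratios had 1 coefficient for each library and 1 mus coefficient for each group, over genes averaging at least 10 allele-assigned reads. Log2 CPM for likeness used a prior count of 2 and genes with a mean of at least 3. Intervals are exact (Clopper-Pearson) at 95%, and a share of 0 carries the limit of 3 counts. The scripts were tested on simulated data.

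Groups come from the sample titles. Alternatives were DESeq2 1.42.0, the authors' factors, no filter, a replicate block and leaving out each library. The members and gene lists were chosen with earlier results of these data known. Named pathway genes are up to 4 per list with the smallest p among those past the threshold against untreated. To these were added Nf2, Cd44, Slc9a3r1, Slk, Stk10, Rhoa, Rock1 and Rock2. Icam1, Podxl, Fas, L1cam, Ppp1cb, Ppp1cc, Slc9a3r2 and Arhgdib as allele call were named after their values were seen. GENCODE gene models follow another build (GRCm38) and served only for gene order and coding sequence, with 266 of 278 X-linked genes matched by name. Of the genes beside Msn, 1 is not reported here.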

Additional observations from a re-analysis of the deposited data

How the results depend on the processing

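Libraries were not paired by replicate number, since no sample label says what a number shares. Correlations of the replicate differences between groups lay between -0.0622 and 0.0326, so no strong shift common to a number was seen. Whether libraries of the same number were made together is not known. With a replicate block the counts of pathway genes called were 29, 40 and 39 for 5azadC, VX680 and both drugs against untreated and 19 and 2 for both against 5azadC and against VX680, none more than 1.5 times from the fit without it. With the authors' library factors the log2 fold change of Msn was 2.04 with VX680 and 2.29 with both drugs against untreated, and that of Rdx turned from -0.05 and -0.04 to 0.053 and 0.065. These factors move the median of all genes by 0.10, 0.10 and 0.11 for VX680 against untreated, both against untreated and both against 5azadC, where genes rising and falling went from 3005 and 2829 to 3586 and 2218, from 3586 and 3454 to 4099 and 2888, and from 1262 and 1877 to 1934 and 1349. Corrected for the autosomal median share, the mus share of Msn was 4.86% with both drugs and 1.28% with VX680, that of Ezr 51.6%, 42.46%, 45.07% and 43.69%, and that of Rdx 55.5%, 55.0%, 50.8% and 51.59%, for untreated, 5azadC, VX680 and both in turn. Leaving out 1 library at a time, the pathway genes called ranged from 18 to 33 with 5azadC, 25 to 44 with VX680, 7 to 22 for both against 5azadC and 0 to 6 for both against VX680, and the allele ratio calls from 0 to 1 with VX680 and 0 to 1 with both drugs. The lone library of a group is then assumed to vary like the others. Causes were not tested.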
